A study of Mus musculus with 8 samples.

Results

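The interferon-stimulated gene factor 3 (ISGF3) subunits STAT2 and IRF9 and a further 6 interferon regulatory factors were followed across untreated, IFN-λ2-stimulated and IFN-β-stimulated intestinal epithelial cells. The members were chosen by gene name: all probes of the array design named Stat2, Irf9, Irf1, Irf2, Irf3, Irf5, Irf7 or Irf8 were taken. This gave 9 probes of 8 genes among 39429 probes, with 2 probes for Irf1 and 1 for each other gene. No probe of another name mapped to these genes through its accession. All 9 probes passed the filter on dim signals and were well above background on all 8 arrays, and none was saturated.

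IEC10 is a line of immortalized gut epithelial cells from the mouse, and its cells carry an Mx2-luciferase transgene in every group. The cells were grown for 21 days on transwell inserts. They were then left untreated (PBS, 2 arrays, replicates 2 and 3) or stimulated for 9 h with 20 ng/mL IFN-λ2 (3 arrays) or 500 U/mL IFN-β (3 arrays). Expression was read on 1-color Agilent whole mouse genome arrays, which report the brightness of 60-base probes after binding of Cy3-labelled RNA. All groups are 1 cell line, and the sources used here do not say whether replicates are separate cultures, so that the p-values measure the spread between these samples, which may be technical.

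Type I and type III interferons bind different receptors but signal through the same Janus kinases, which phosphorylate STAT proteins. STAT2 and IRF9 are subunits of ISGF3, which binds the interferon-stimulated response element (ISRE) in the promoters of interferon-stimulated genes, whereas STAT homodimers bind gamma-activated sites (GAS). IRF3 and IRF7 are the factors that virus sensors activate to transcribe interferon genes, IRF1 activates and IRF2 mostly represses genes with similar elements, and IRF5 and IRF8 are best known from leukocytes.

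The bases before the annotated transcription start are shown for the 4 genes that rose after both interferons, Stat2, Irf9, Irf1 and Irf7, as RefSeq gives them for GRCm38.p6. The windows of 300 bases (250 before and 50 after the start) were searched on both strands for the ISRE core (2 copies of GAAA with 2 bases between them) and the GAS core TTCNNNGAA, and the 250 bases before the start are printed 5′ to 3′ on the gene's strand with matched bases in capitals. Stat2 lies at chr10:128270248-128270497 on the plus strand. The first Irf9 window lies at chr14:55603735-55603984 on the plus strand. The first Irf1 window lies at chr11:53769764-53770013 on the plus strand, and Irf7 at chr7:141266425-141266674 on the minus strand.
Stat2: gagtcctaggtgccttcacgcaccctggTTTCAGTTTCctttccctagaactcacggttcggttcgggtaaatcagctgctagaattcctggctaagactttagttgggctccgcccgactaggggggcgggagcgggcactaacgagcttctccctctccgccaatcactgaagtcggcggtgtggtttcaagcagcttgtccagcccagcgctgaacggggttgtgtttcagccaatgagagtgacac
Irf9: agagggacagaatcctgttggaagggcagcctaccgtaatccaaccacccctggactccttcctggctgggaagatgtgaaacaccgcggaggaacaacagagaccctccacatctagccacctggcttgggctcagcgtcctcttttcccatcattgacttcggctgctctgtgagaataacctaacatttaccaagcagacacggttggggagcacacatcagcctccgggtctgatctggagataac
Irf1: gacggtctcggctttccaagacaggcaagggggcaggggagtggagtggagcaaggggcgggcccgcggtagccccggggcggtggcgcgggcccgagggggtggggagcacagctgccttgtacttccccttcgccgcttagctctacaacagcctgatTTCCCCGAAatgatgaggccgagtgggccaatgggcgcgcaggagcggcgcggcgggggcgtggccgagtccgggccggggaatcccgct
Irf7: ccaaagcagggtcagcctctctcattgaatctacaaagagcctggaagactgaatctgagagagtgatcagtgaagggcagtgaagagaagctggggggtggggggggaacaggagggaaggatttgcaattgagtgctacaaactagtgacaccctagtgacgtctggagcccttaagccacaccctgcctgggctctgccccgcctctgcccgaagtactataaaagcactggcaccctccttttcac

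The ISRE core was found in the Stat2 window, on the opposite strand with its bases 222 to 213 before the start, and the GAS core in the Irf1 window, 90 to 82 bases before the start. Neither core was found in the Irf7 window or in either of the 2 Irf9 windows, nor in the windows of Irf3 and Irf5 or in the second windows of Irf1 and Irf8. Matches were also found in 2 genes that did not pass the test in the array comparisons, so their surroundings are shown for contrast. In Irf2 the 2 cores lie close together on chromosome 8, with the ISRE core on the plus strand. In Irf8 the GAS core occurs at 2 places on that chromosome. The GAS core reads the same on both strands, so its matches have no strand. Each line below is printed on the plus strand and has only the match it names in capitals.
Irf2, ISRE core, chr8:46739495-46739538: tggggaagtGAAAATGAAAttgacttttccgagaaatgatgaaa
Irf2, GAS core, chr8:46739496-46739554: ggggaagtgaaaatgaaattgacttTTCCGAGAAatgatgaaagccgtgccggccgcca
Irf8, first GAS core, chr8:120736162-120736220: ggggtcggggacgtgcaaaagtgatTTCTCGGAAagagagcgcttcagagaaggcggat

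Over all 32851 promoter windows of the table, 3.44% held the ISRE core and 8.3% the GAS core. Among gene names the shares were 3.99% and 9.55% of 27025, against 2 of the 8 members with the ISRE core and 3 of 8 with the GAS core. A shorter IRF core, AANNGAAA, which lies within the ISRE core, was found in 23.9% of windows and in the same 2 members, Stat2 and Irf2. The matches describe letters in these windows and do not show binding. A missing match does not show that a gene lacks such an element outside the window or in another form.

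After IFN-λ2, 5 of the 9 member probes were higher than in untreated cells and none was lower, at an adjusted p under 0.05 in limma's moderated test. Of all 25971 probes tested in this comparison, 10.0% were higher and 8.55% lower. After IFN-β, 4 of the 9 probes were higher and none lower, where 1.44% of all probes were higher and 0.208% lower. For the 9 probes the median log2 change was 0.94 with IFN-λ2 and 0.86 with IFN-β, compared with medians of 0.00 and 0.02 over all probes. Irf7 changed the most, followed by Stat2 and Irf9, then Irf1, while Irf3 gave nearly the same signal on all arrays. The arrays of control and IFN-λ2 cells did not overlap for 7 of the 9 probes, against 49.5% of all probes, and those of control and IFN-β cells for 6 of the 9, against 26.5%. The comparisons with untreated cells share their 2 control arrays. Values are given in normalized gPS units, the scanner's background-subtracted processed signal scaled so that the 75th percentile of each array is 1500, and levels are compared between groups for 1 probe at a time because the brightness of different probes is not comparable.

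**Figure D1:**
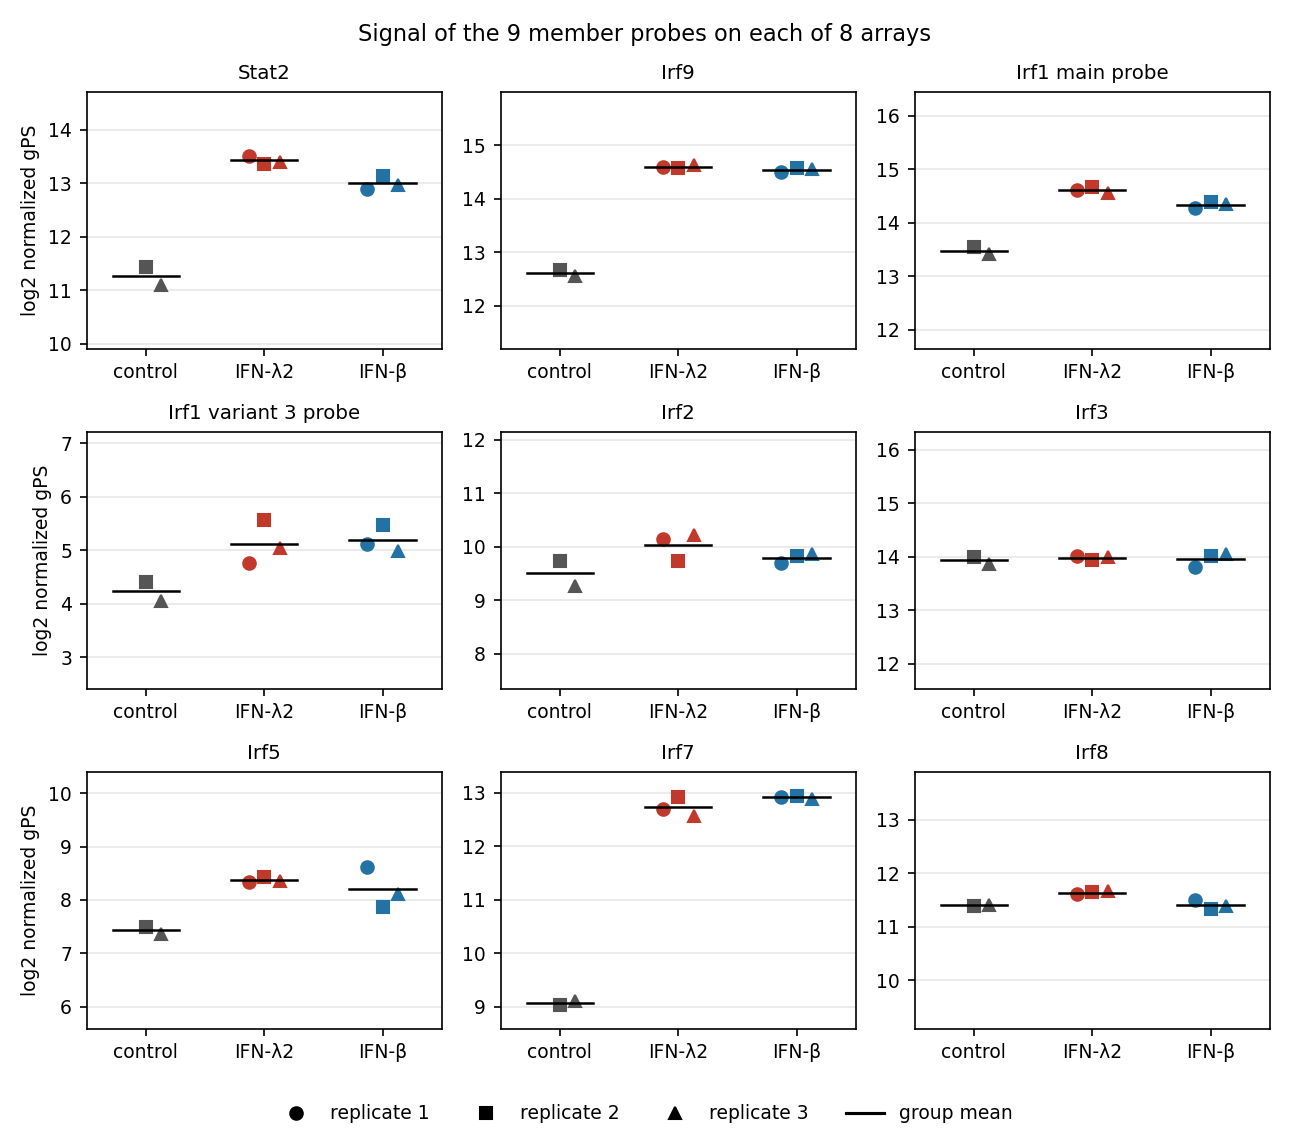
Signal of each member probe on each array, as log2 normalized gPS (y axis, the same span in every panel) for control, IFN-λ2 and IFN-β; symbols mark replicate numbers and lines the group means. The control arrays lie apart from all stimulated arrays for Stat2, Irf9, Irf7, Irf5 and both Irf1 probes, and all arrays lie together for Irf3.

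The subunits of ISGF3 rose together. The Stat2 probe (NM_019963, mm9 chr10:127729834-127729893) gave 2754 and 2201 units on the control arrays of replicates 2 and 3. On the IFN-λ2 arrays of replicates 1, 2 and 3 it gave 11658, 10570 and 10816 units, and on the IFN-β arrays 7569, 9048 and 7996 units. All stimulated arrays lay above both control arrays, and all IFN-λ2 arrays above all IFN-β arrays. Stat2 rose 4.47-fold after IFN-λ2 (log2 change 2.16 ± 0.12, SE, adjusted p = 7.38e-05) and 3.32-fold after IFN-β (1.73 ± 0.12, adjusted p = 0.000392). Within the slides that held all 3 groups, the log2 difference from control was 1.94 and 2.30 with IFN-λ2 and 1.72 and 1.86 with IFN-β.

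Irf9 encodes the DNA-binding subunit of ISGF3. Its probe (NM_001159417, mm9 chr14:56228806-56228865) gave 6476 and 6025 units on the control arrays. The IFN-λ2 arrays gave 24757, 24373 and 25479 units and the IFN-β arrays 23089, 24399 and 24177 units. The control arrays were well below the stimulated arrays, whereas the ranges of the 2 interferons overlapped. Irf9 rose 3.98-fold after IFN-λ2 (log2 change 1.99 ± 0.07, adjusted p = 6.48e-06) and 3.82-fold after IFN-β (1.94 ± 0.07, adjusted p = 1.14e-05). The within-slide log2 differences lay between 1.91 and 2.08.

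Irf7 encodes the factor that amplifies interferon production once it has itself been induced. Its probe (NM_016850) maps to the minus strand of mm9 chr7:148450664-148451014, an interval of 351 bases for a probe of 60, so that it lies across a gap in the genome. The control arrays gave 524 and 548 units. The IFN-λ2 arrays gave 6659, 7796 and 6073 units and the IFN-β arrays 7787, 7884 and 7553 units. Both interferon groups lay far above the control arrays, and they overlapped each other. Irf7 rose 12.7-fold after IFN-λ2 (95% confidence interval 10.6 to 15.2, adjusted p = 3.67e-06) and 14.4-fold after IFN-β (12.1 to 17.3, adjusted p = 5.18e-06).

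Irf1, the activator that also controls antigen presentation genes, was measured by 2 probes. The main probe (NM_008390, mm9 chr11:53590746-53590805) gave 11870 and 10906 units on the control arrays. It gave 24860, 26093 and 24042 units on the IFN-λ2 arrays and 19828, 21514 and 20758 units on the IFN-β arrays. The 3 groups did not overlap: control arrays were lowest and IFN-λ2 arrays highest. On this probe Irf1 rose 2.2-fold after IFN-λ2 (log2 change 1.13 ± 0.08, adjusted p = 0.000183) and 1.82-fold after IFN-β (0.86 ± 0.08, adjusted p = 0.00154).

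The second Irf1 probe (mm9 chr11:53591817-53591876) stands for transcript variant 3, NM_001159393, and was dim. It gave 21.4 and 16.7 units on the control arrays, 27.3, 47.4 and 32.9 units on the IFN-λ2 arrays and 34.6, 44.3 and 31.6 units on the IFN-β arrays, close to the lower threshold of 15 units. The stimulated arrays were above the control arrays, but neither change passed the test (log2 change 0.89 ± 0.26, adjusted p = 0.0547, after IFN-λ2; 0.95 ± 0.26, adjusted p = 0.189, after IFN-β). In the fit with a replicate block the IFN-λ2 change was 0.995 and passed (adjusted p = 0.0157), and without the IFN-λ2 array of replicate 1 it was 1.06 and passed (adjusted p = 0.0494). With normexp background correction the changes were smaller, 0.52 after IFN-λ2 (adjusted p = 0.0726) and 0.22 after IFN-β (adjusted p = 0.996). Both probes gave positive values in both comparisons.

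Irf2, the repressor that competes with IRF1 for its sites, did not pass the test. Its probe (NM_008391, mm9 chr8:47932486-47932545) gave 855 and 620 units on the control arrays, 1133, 854 and 1192 units on the IFN-λ2 arrays and 830, 907 and 938 units on the IFN-β arrays. The control arrays stood apart from each other, and the groups overlapped. The log2 change was 0.53 after IFN-λ2 (95% confidence interval 0.09 to 0.97, adjusted p = 0.0967) and 0.29 after IFN-β (-0.15 to 0.73, adjusted p = 0.604). Within slides the IFN-λ2 change was 0.00 for replicate 2 and 0.94 for replicate 3. Without the IFN-λ2 array of replicate 2 it was 0.68 and passed (adjusted p = 0.0454). Without control replicate 3 it was 0.30 (adjusted p = 0.414) and the IFN-β change 0.06, and without control replicate 2 they were 0.76 and 0.52, neither called.

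Irf3, which is present in most cells and is switched on by phosphorylation, gave similar signals on all arrays. Its probe (NM_016849, mm9 chr7:52257700-52257759) gave 16420 and 15005 units on the control arrays, 16596, 15719 and 16297 units on the IFN-λ2 arrays and 14435, 16638 and 16962 units on the IFN-β arrays. The groups overlapped throughout. For Irf3 the log2 change was 0.05 with IFN-λ2 and 0.03 with IFN-β, with 95% confidence intervals of -0.18 to 0.27 and -0.20 to 0.25. The data therefore bound any change of Irf3 to within 0.873 and 1.2 times the control level at that confidence, without showing that it was absent.

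Irf5, best known for inflammatory cytokine transcription in macrophages, was higher after IFN-λ2. Its probe (NM_012057, mm9 chr6:29486901-29486960) gave 181 and 164 units on the control arrays, 324, 345 and 325 units on the IFN-λ2 arrays and 395, 233 and 278 units on the IFN-β arrays. All stimulated arrays lay above the control arrays, and the IFN-β arrays scattered more widely than the IFN-λ2 arrays. Irf5 rose 1.92-fold after IFN-λ2 (log2 change 0.94 ± 0.20, adjusted p = 0.021), and after IFN-β the fold was 1.71 (0.77 ± 0.20, adjusted p = 0.178). The IFN-λ2 call was lost in the fit with a replicate block (log2 change 0.84, adjusted p = 0.0629) and without any 1 of the 5 arrays of the 2 groups compared. Without control replicate 2 or 3 the adjusted p was 0.0711 or 0.111, and without IFN-λ2 replicate 1, 2 or 3 it was 0.0624, 0.0586 or 0.0564. With no filter on dim probes it was 0.0613, and Irf5 also missed the methods' threshold for their t-test, which asks for a 2-fold change.

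Irf8, a lineage factor of myeloid and B cells, did not pass the test in any comparison. Its probe (NM_008320, mm9 chr8:123280324-123280383) gave 2690 and 2723 units on the control arrays, 3116, 3205 and 3243 units on the IFN-λ2 arrays and 2910, 2558 and 2660 units on the IFN-β arrays. The IFN-λ2 arrays lay above all other arrays, and the control arrays lay within the range of the IFN-β arrays. The log2 change after IFN-λ2 was 0.24 (95% confidence interval 0.06 to 0.42, adjusted p = 0.0767), and without the IFN-β array of replicate 1, which enters the shared estimate of the spread, the adjusted p was 0.0476. It was also called with a variance prior with trend (adjusted p = 0.0451) and by the equal-variance t-test after Benjamini-Hochberg adjustment (0.0426), and under none of the other 18 alternatives. After IFN-β the log2 change of Irf8 was 0.00 (-0.18 to 0.18).

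**Figure D2:**
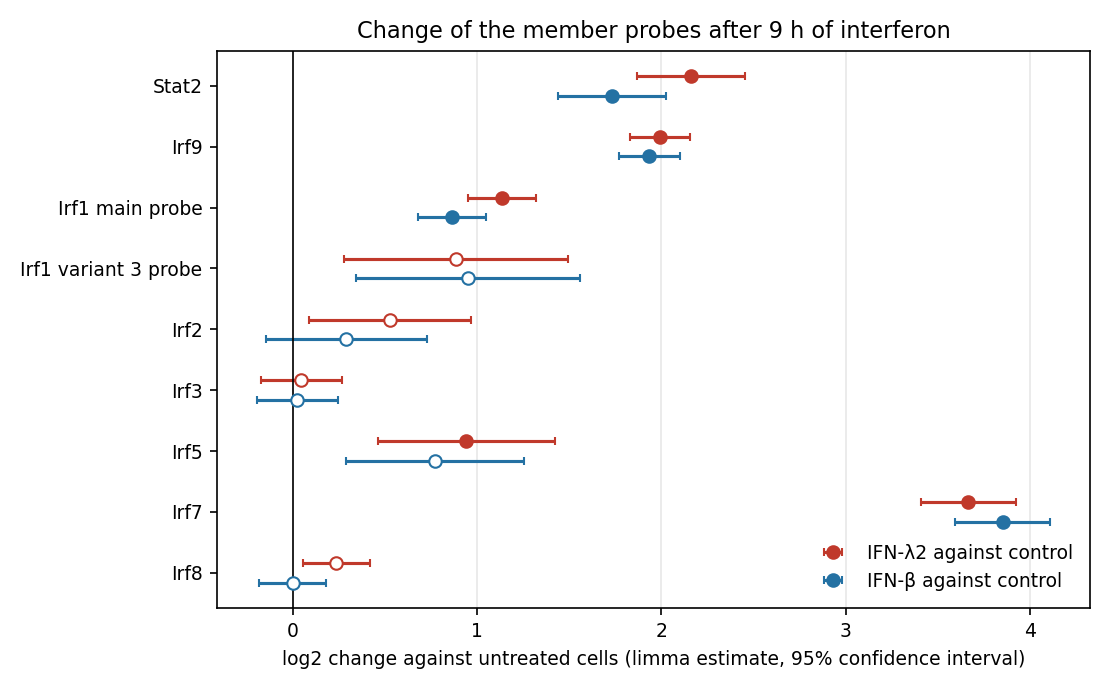
Log2 change against untreated cells for each member probe (limma estimate, bars give the 95% confidence interval), in red for IFN-λ2 and blue for IFN-β; filled points passed an adjusted p of 0.05. Irf7 lies near 3.67 and 3.85, Stat2 and Irf9 between 1.73 and 2.16, and the intervals of Irf3 include 0.

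Irf5 and Irf8 are best known from leukocytes, so leukocyte markers were examined in the same arrays. Of 12 markers, 2 were not well above background on any array, and 8 passed the filter on dim signals. The pan-leukocyte marker Ptprc and the macrophage marker Adgre1 were each well above background on 2 of 8 arrays and had control means of 15.1 and 15 units, at the threshold. The other 6 tested markers, Itgam, Csf1r, Cd3e, Cd68, Cd74 and Fcgr1, were well above background on all 8 arrays. The integrin Itgam had means of 7122 units in control cells, 2870 after IFN-λ2 and 6710 after IFN-β (log2 change -1.33 after IFN-λ2, adjusted p = 0.143, called in 2 of 21 alternatives), and the receptor Csf1r had means of 5170, 6394 and 5615 units (0.31, adjusted p = 0.122). Each of these genes had 2 further probes, and those of Itgam gave 15 to 121.3 units and those of Csf1r 143.4 to 232.8 units over the 8 arrays. The summed level of the 8 tested markers was 11060 to 14671 units on the control arrays, 9477 to 11757 units on the IFN-λ2 arrays and 9410 to 16733 units on the IFN-β arrays, so that the groups overlapped, and it was made up mostly of the Itgam and Csf1r signals, whose log2 changes after IFN-λ2 were of opposite sign. Among these 8 only Cd74, the MHC class II invariant chain, was called in the comparisons with untreated cells, with a log2 change of 2.24 after IFN-λ2 (adjusted p = 1.58e-05) and 0.29 after IFN-β (adjusted p = 0.272). Cd74 was also 3.88-fold higher after IFN-λ2 than after IFN-β (adjusted p = 0.000141). All 12 epithelial markers were well above background on all arrays. After IFN-λ2, 4 of them were higher (Krt20 with a log2 change of 0.72 and Ocln with 0.58 among them) and 2 lower (Cldn3, log2 change -0.63, and Cldn4, -0.54), and none was called after IFN-β. The 4 higher markers became 2 with the replicate block, 1 without control replicate 3 or IFN-λ2 replicate 3, and 2 without IFN-λ2 replicate 1. Ocln was among those lost with the block (adjusted p = 0.0655). Between the interferons, 3 epithelial markers were higher after IFN-λ2, Ocln, Krt19 and Krt20 (log2 difference 0.61, 0.58 and 0.50), and Cldn4 was lower (-0.37). With the block Ocln and Cldn4 were not called (adjusted p = 0.0538 and 0.0509). Without IFN-λ2 replicate 1 the 3 higher markers became 1, and the Cldn4 call was lost without any 1 of the 6 interferon arrays (up to 0.0933). The summed level of the 12 markers was 457510 to 469260 units on the control arrays, 540627 to 565603 units on the IFN-λ2 arrays and 465636 to 504557 units on the IFN-β arrays, and their part in the member results was not tested. This sum adds different probes, whose brightness is not comparable, and was made up mostly of Krt18 and Krt20. Their means were 204041.5 and 89359.4 units in control cells and 240364.5 and 147094.8 after IFN-λ2. Krt18 was not called after IFN-λ2 (adjusted p = 0.0916). None of the 3 tested fibroblast markers and none of the 3 tested endothelial markers was called in any comparison. In bulk RNA, fewer cells of a type and less RNA per cell cannot be told apart.

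The direct comparison of the 2 interferons called no member probe at an adjusted p under 0.05 with limma, in either direction. Of 25972 probes tested, 5.53% were higher and 5.68% lower after IFN-λ2 than after IFN-β, and 3 of the 9 member probes had an unadjusted p under 0.05, against 25.4% of all probes. The equal-variance t-test also called none. The 3 probes were Stat2, the main Irf1 probe and Irf8, all with higher signals after IFN-λ2 and with no overlap between the arrays of the 2 interferons. Arrays of the 2 interferons did not overlap for 32.4% of all probes either, so that neither count sets the members apart from the other probes. Stat2 was higher after IFN-λ2 by 1.35-fold (log2 difference 0.43, 95% confidence interval 0.17 to 0.69, adjusted p = 0.0525). Irf1 was 1.21-fold higher (0.27, 0.11 to 0.44, adjusted p = 0.0508), and Irf8 was 1.18-fold higher (0.24, 0.08 to 0.40, adjusted p = 0.0749).

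These values lie near the threshold, and most alternatives left them above it: of 21, Stat2 was called in 8, Irf1 in 6 and Irf8 in 2. With the replicate block the adjusted p was 0.0859, 0.0655 and 0.127, and with normexp 0.057, 0.175 and 0.209. Without any 1 of the 6 interferon arrays Stat2 was not called (0.0518 to 0.172). With the authors' own value table, which differs from the values used here by a constant factor on each array, Stat2 and Irf1 both passed (adjusted p = 0.0475 and 0.0446). Without either control array, which enters only through the shared estimate of the spread, the adjusted p of Stat2 was 0.0373, and without the IFN-β array of replicate 1 that of Irf8 was 0.0434. On the 3 slides the differences were 0.62, 0.22 and 0.44 for Stat2, 0.33, 0.28 and 0.21 for Irf1, and 0.10, 0.33 and 0.29 for Irf8, whose positive sign follows from the lack of overlap. The log2 difference of Irf9 was 0.06 (-0.09 to 0.21) and that of Irf7, the most strongly induced member, was -0.19 (-0.42 to 0.05). The intervals of both include 0.

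The remaining members were not called either. The log2 difference was 0.17 (-0.26 to 0.60) for Irf5, 0.24 (-0.16 to 0.63) for Irf2, 0.02 (-0.18 to 0.22) for Irf3 and -0.06 (-0.61 to 0.48) for the dim Irf1 probe. The slides disagreed in sign for each of these 4 probes.

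**Figure D3:**
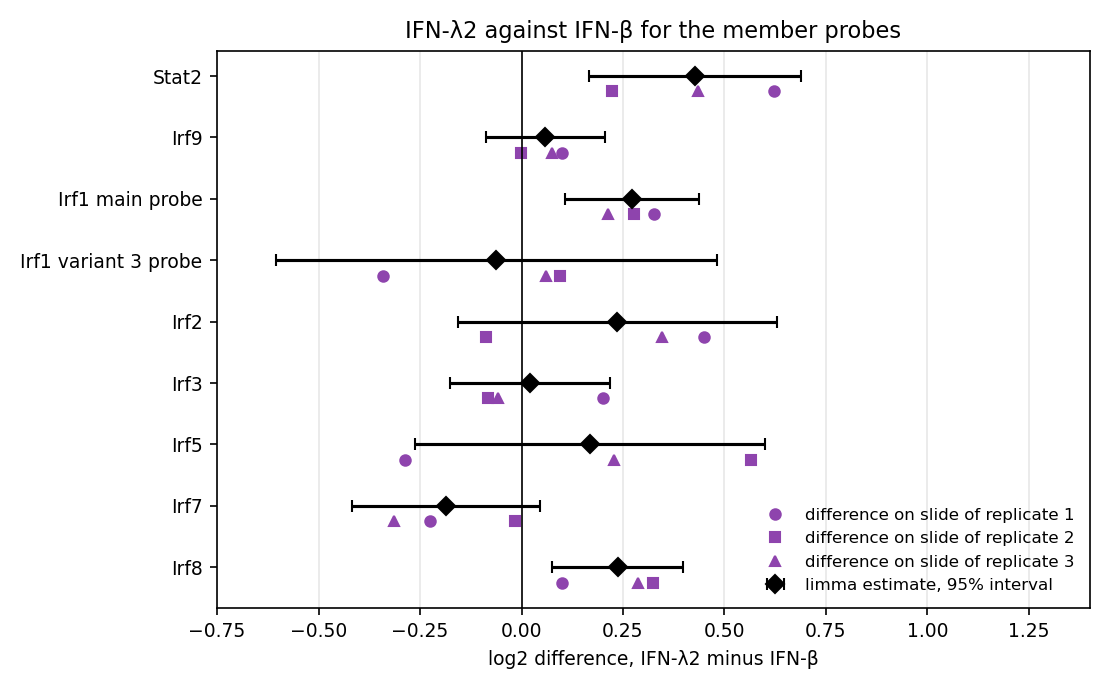
IFN-λ2 minus IFN-β on the log2 scale for each member probe. Black diamonds give the limma estimate with its 95% confidence interval, and purple symbols give the difference on each of the 3 slides. The intervals of Stat2, the main Irf1 probe and Irf8 lie above 0 before adjustment over all probes.

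The genes around the members were read from lists of the pathway. Upstream of ISGF3, all 9 receptor chains and Janus kinases of the interferon pathways were well above background on all arrays, and none was called in any of the 3 comparisons. Their median log2 change was -0.08 with IFN-λ2 and -0.03 with IFN-β. Of 8 other STAT and IRF family genes and IRF2-binding proteins tested, 2 were lower after IFN-λ2 and none higher. These were Stat6, which transmits interleukin-4 signals (log2 change -0.67, adjusted p = 0.00171), and Irf2bpl, an IRF2-binding protein homolog (-0.42, adjusted p = 0.00734). With normexp background correction this call of Irf2bpl was lost. Stat6 had a log2 change of -0.46 after IFN-β (adjusted p = 0.0371), a call that was lost with the replicate block (adjusted p = 0.138) and without any 1 of the 8 arrays (0.0552 to 0.179). Against IFN-β, 2 genes of this list were lower after IFN-λ2, Irf2bpl (-0.25, adjusted p = 0.046) and Irf4 (-0.49, adjusted p = 0.0268), a lymphocyte factor whose group means were 77.5 units in control cells, 84.6 after IFN-λ2 and 118.7 after IFN-β. With the replicate block neither was called (adjusted p = 0.095 for Irf2bpl and 0.0756 for Irf4). The call of Irf2bpl was also lost without any 1 of the 8 arrays (0.0591 to 0.147), and that of Irf4 without replicate 1 or 3 of either interferon (up to 0.0968).

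Among 12 negative regulators of interferon signalling, IFN-λ2 raised 3 and lowered 2, and IFN-β raised 3 and lowered none. Usp18, which binds the IFNAR2 chain and removes ISG15, rose 13.6-fold with IFN-λ2 and by 11.8-fold with IFN-β (adjusted p = 5.52e-06 and 1.13e-05). The ubiquitin ligase Trim21 rose 3.98-fold and 3.26-fold, and the Janus kinase inhibitor Socs1 rose 3.41-fold and 2.85-fold. Pias3, which inhibits STAT3, had a log2 change of -0.93 after IFN-λ2 (adjusted p = 0.00319), and its log2 change after IFN-β was -0.17 (adjusted p = 0.638). Socs3 was the other lower gene, with a log2 change of -0.71 after IFN-λ2 (adjusted p = 0.00179). Directly compared, Pias3 and Socs3 were lower after IFN-λ2 than after IFN-β (log2 difference -0.75 and -0.48, adjusted p = 0.00707 and 0.00869), and Trim21 was higher (0.29, adjusted p = 0.0466). With normexp background correction Pias3 lost its calls in both comparisons. The Trim21 call was lost with the replicate block (adjusted p = 0.0792) and without any 1 of the 8 arrays (0.0564 to 0.148).

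The sensors, adaptors and kinases that activate IRF3, IRF5 and IRF7 were divided. Of 17 genes, IFN-λ2 raised 8 and lowered 1, and IFN-β raised 4 and lowered none, with medians of 0.22 and 0.09. The nucleic acid sensors led: Zbp1 rose 38.1-fold and 35.4-fold after IFN-λ2 and IFN-β, the RNA helicase Ddx58 (RIG-I) 7.14-fold and 6.73-fold, the RNA helicase Ifih1 (MDA5) 5.22-fold and 5.02-fold, and the endosomal receptor Tlr3 2.41-fold and 2.27-fold. After IFN-β the call of Tlr3 was lost with the replicate block (adjusted p = 0.152) and without IFN-λ2 replicate 1, either control array or any IFN-β array (up to 0.206). The 8 genes higher after IFN-λ2 became 6 with the block, without Myd88 and Azi2 (adjusted p = 0.0627 and 0.0553), and 5 without control replicate 3 or IFN-λ2 replicate 3. With normexp Zbp1 rose 24.3-fold and 23.1-fold. The lower gene, Ticam1, was not called without either control array or IFN-λ2 replicate 2 (up to 0.103). No gene of this list was called between the 2 interferons.

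**Figure D4:**
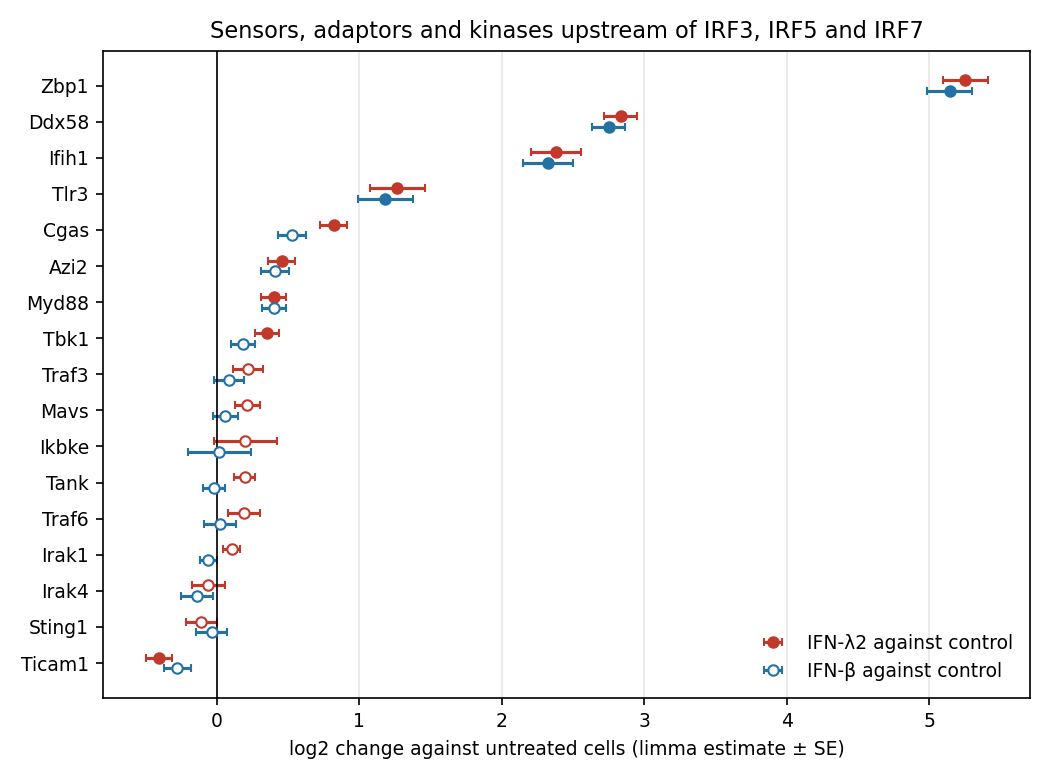
Log2 change against untreated cells (limma estimate ± SE) for 17 genes that act upstream of IRF3, IRF5 and IRF7, in red for IFN-λ2 and blue for IFN-β; filled points passed an adjusted p of 0.05. Zbp1, Ddx58, Ifih1 and Tlr3 lie well to the right for both interferons, and Ticam1 lies lowest, at -0.40 after IFN-λ2.

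The interferon genes that IRF3 and IRF7 transcribe were near the lower threshold. Of 6 tested, only Ifnb1 was called: its mean was 36.2 units in control cells, 149.7 after IFN-λ2 and 62.6 after IFN-β, a 4.07-fold rise after IFN-λ2 (adjusted p = 0.00317) and a log2 change of 0.75 after IFN-β (adjusted p = 0.329). The direct difference was 1.27 on the log2 scale (adjusted p = 0.0174). It was not called without IFN-β replicate 1 (adjusted p = 0.055) or with no filter on dim probes. The equal-variance t-test called Ifnb1 neither after IFN-λ2 nor between the interferons, whether at its p and fold threshold or after Benjamini-Hochberg adjustment. With normexp Ifnb1 rose 2.44-fold after IFN-λ2. The other 5, 4 Ifna genes and Ifnl3, had group means of 15 to 72.5 units and log2 changes between -0.03 and 0.14. The Ifna genes are near-identical copies whose probes may share transcripts.

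All 20 genes listed as textbook targets of ISGF3 rose after both interferons, with median log2 changes of 3.85 (IFN-λ2) and 3.46 (IFN-β), and 8 were higher after IFN-λ2 than after IFN-β in the direct comparison, where the median was 0.23. The oligoadenylate synthetases Oas2 and Oas3 rose 97-fold and 41.6-fold with IFN-λ2, against 37.3-fold and 22.8-fold with IFN-β. Directly compared, Oas3 was not called with the replicate block (adjusted p = 0.0599), nor without IFN-λ2 replicate 1 or 2 or IFN-β replicate 2 or 3 (up to 0.111). The antiviral GTPase Mx1 rose 29.6-fold and 15.1-fold, and Oasl2 28-fold and 24.4-fold. With normexp background correction the folds were lower, 57.3 and 22.2 for Oas2, 19.2 and 10.8 for Oas3 and 13.7 and 7.04 for Mx1. Of the 16 of these genes with a promoter window, 8 held the ISRE core.

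Of 19 genes listed as IRF1 targets, which include the member Irf8 and Socs1, 12 rose after each interferon and 4 were higher after IFN-λ2 than after IFN-β. With the replicate block B2m, the MHC class I light chain, was called neither after IFN-β (adjusted p = 0.0752) nor between the interferons (0.0812). The GTPase Gbp2 rose by 10.5-fold and 10.2-fold after the same treatments, and the chemokine Cxcl10 by 6.4-fold and 4.94-fold. The immunoproteasome subunits Psmb9 and Psmb8 rose 6.12-fold and 5.28-fold with IFN-λ2, against 3.61-fold and 3.42-fold with IFN-β, and both differed between the interferons (log2 difference 0.76 and 0.63, adjusted p = 0.00413 and 0.00429).

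Finally, the probes most like Stat2, Irf9, the main Irf1 probe and Irf7 were sought among 20247 probes that were well above background on all 8 arrays. Likeness was the root mean square difference of log2 values over the 8 arrays after centring each probe on its mean. The nearest to Stat2 were Nlrc5, the activator of MHC class I genes, at 0.09, the exonuclease Isg20 at 0.13 and Trim21 at 0.14. The nearest to Irf9 were Oas1c at 0.07, the RNA-dependent kinase Eif2ak2 at 0.08 and Shisa5 at 0.08. The nearest to Irf1 were Trafd1 at 0.05, the phospholipid synthesis enzyme Chpt1 at 0.07 and the peptide transporter subunit Tap2 at 0.07. The nearest to Irf7 were the ubiquitin-like modifier Isg15 at 0.16 and the PYHIN genes Ifi203 at 0.16 and Ifi204 at 0.19, which belong to a family of similar copies. These distances are descriptions over the same 8 arrays.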

How the data were processed

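Gene expression was measured in 8 samples of IEC10 cells in 3 groups, assigned by their labels. Control replicate 1 is not part of the data used here. The labels name Trizol for RNA extraction, whereas the methods name a column kit.

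For each 1-color array the authors deposited the output of Agilent Feature Extraction 10.7.3.1, with an intensity per feature from which the software had subtracted the background and which was not yet scaled between arrays. A second deposited table holds scaled intensities on a linear scale. It differed from the values computed here by a constant factor on each array, a log2 shift between -0.14 and -0.11, and is used as an alternative.

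Features that were flagged, marked as outliers, uneven (pixel coefficient of variation above 0.5) or, among on-chip copies, beyond the quartiles by 1.42 interquartile ranges were left out, 313 to 424 per array. Geometric means per probe of the deposited intensities were scaled to a 75th percentile of 1500, raised to at least 15 units and log2-transformed. Testing was limited to probes that exceeded this floor on 2 or more arrays. A limma model (limma 3.58.1, R 4.3.3) held the group means of all 8 arrays, with Benjamini-Hochberg adjustment over all probes tested at 0.05. A probe was counted as higher or lower by its adjusted p alone, with no limit on the fold. No test was run on gene lists.

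Arrays that share a replicate number also share a slide and a scan, and a group always took the same position on the slide, so that position and treatment cannot be told apart. Deviations from the group means correlated by 0.178, 0.255 and 0.297 between the IFN-λ2 and IFN-β arrays of replicates 1, 2 and 3, so that these numbers pair the arrays. With the control arrays they lay between -0.06 and 0.101. The fit has no block. The blocked value stands beside a member or named gene whose call it changes, and the counts of such genes in the lists are in the closing section. The median log2 difference between replicates of 1 group was 0.10 to 0.16. The small number of arrays limits the precision.

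All member probes are given. From each other list the text names at most 4 genes, those with the largest log2 change after IFN-λ2 that passed the test and were well above background on all arrays. A gene has 1 probe in the lists, the one with the highest mean signal. Socs3, Irf4, Ticam1, Myd88, Azi2, B2m, Ifit2 and the markers Krt18, Krt19, Ptprc, Adgre1, Itgam, Csf1r, Cd3e, Cd68 and Fcgr1 were named after their values were seen. The members and lists were chosen with earlier results of these data known. Probes were named by RefSeq accession (26406), symbol (3859) or synonym (742), and 8422 kept the name of the design. Probe coordinates were taken from the array files (mm9), and exon annotation on that build was not used here. Some genes of these families are not reported here.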

Additional observations from a re-analysis of the deposited data

How the results depend on the processing

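The member counts and member values were recomputed under 21 alternatives, or 20 for the dim Irf1 probe, which has no value with a floor of 50. They cover the background correction, scaling, floor, filters, the authors' table and the replicate block. They also cover leaving out each array, the samples fitted, the variance prior and the equal-variance t-test. Of 564 values for single probes, 515 kept their direction and side of the threshold. The counts of 5 probes higher after IFN-λ2 and of 0 lower in any comparison stayed within 1.5 times, with 4 to 6 higher after IFN-λ2 when an array was left out. Stat2, Irf9, Irf7 and the main Irf1 probe were called after IFN-λ2 under all 21 alternatives, and Irf9 and Irf7 also after IFN-β. The equal-variance t-test left 2 probes higher after IFN-β, both at its p and fold threshold and after Benjamini-Hochberg adjustment. Stat2 and Irf1 did not pass (adjusted p = 0.134 and 0.101), and the cause was not tested. Over all probes, at p under 0.001 and at least 2-fold, the t-test called 302 higher and 63 lower after IFN-λ2. It called 156 and 3 after IFN-β, and 199 and 84 between the interferons. This threshold leaves out the q-value limit that the methods give beside it, so these counts are not those of the methods' filter. After Benjamini-Hochberg adjustment the counts were 983 and 635, 84 and 16, and 970 and 793, in the same order.

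The count of probes higher after IFN-λ2 than after IFN-β was 0 and moved most. It was 2 with quantile normalization, a floor of 50, the filter on probes well above background or the authors' table, 1 without a filter or with only the groups compared, 3 with a variance prior with trend, and 0 to 1 when an array was left out; the cause was not tested. Among the member probes, the replicate block changed no other call than those of Irf5 and of the dim Irf1 probe after IFN-λ2.

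Values near 0 changed sign. Irf3 was -0.053 with IFN-λ2 and -0.054 with IFN-β under quantile normalization. When an array was left out, Irf3 lay between -0.019 and 0.111 after IFN-λ2, between -0.040 and 0.098 after IFN-β, and between -0.052 and 0.064 between the interferons. Irf8 lay between -0.053 and 0.04 after IFN-β. Between the interferons, the dim Irf1 probe was 0.302 with normexp, 0.033 with quantile normalization and -0.282 to 0.116 when an array was left out, and Irf5 was -0.001 to 0.381. Normexp shifted the median of all probes by 0.11 after IFN-λ2 on the log2 scale. Signals near the floor, such as that of the dim Irf1 probe and the Ifna genes, have little order.

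The 115 genes of the other lists were refitted under the same alternatives. With the replicate block, 4 of their 54 calls after IFN-λ2, 3 of 38 after IFN-β and 7 of 23 between the interferons were lost, and 1 was gained, Ifit2 between the interferons (adjusted p = 0.0299). The count of 20 ISGF3 targets higher after IFN-λ2 was the same in all alternatives, and after IFN-β it was 9 with the equal-variance t-test after Benjamini-Hochberg adjustment. That test left 3 of 12 IRF1 targets and 1 of 3 negative regulators higher after IFN-β, and 4 of 8 and 1 of 4 upstream genes of IRF3, IRF5 and IRF7 higher after IFN-λ2 and IFN-β. At the p and fold threshold of the t-test, 2 of these upstream genes were higher after each interferon, and 7 IRF1 targets after IFN-β. Neither form of the test called a lower gene among the upstream genes or a higher or lower epithelial marker after IFN-λ2. The 8 ISGF3 targets higher after IFN-λ2 than after IFN-β were 6 to 9 when an array was left out and 1 at the p and fold threshold of the t-test. The 4 IRF1 targets were 7 with a variance prior with trend and 0 at that threshold. With normexp, Pias3 lost both calls (log2 change -0.52 after IFN-λ2, difference -0.36), the difference of Irf4 was -0.12, Irf2bpl lost its call after IFN-λ2 (log2 change -0.29, adjusted p = 0.264), and 2 epithelial markers were higher. The cause of these changes was not tested.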
